A study of Mus musculus with 12 samples.

Results

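The 10 genes described here are secreted Wnt ligands (Wnt2, Wnt4, Wnt5a and Wnt5b), secreted Wnt antagonists (Sfrp1, Sfrp2, Dkk2 and Dkk3) and feedback targets of the pathway (Axin2 and Lef1). They were taken as a list of symbols, and the symbols were matched to the Ensembl gene identifiers of the count tables. All 10 were found among 55335 gene rows and all 10 passed the expression filter, which kept 16597 genes. RNA-seq counts were available for 12 libraries, in 4 groups of 3, of fibro-adipogenic progenitors (FAPs) from the limb muscle of mice, the mesenchymal cells between muscle fibres that can form fibroblasts and adipocytes. The cells were sorted as live, lineage-negative, Vcam-negative and Sca1-positive and then cultured with 20% fetal bovine serum, so the RNA is that of cultured cells. The study compared the genes that respond to loss of Bap1, a nuclear deubiquitinase, and to SMN, the survival motor neuron protein, in these cells.

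WT libraries came from ethanol-treated cells whose source is labelled as wild-type mice. Bap1KO libraries came from cells with floxed Bap1 treated with 1 µM 4-hydroxytamoxifen (4-OHT), with a change of medium after 24 h. Smn1OE cells received the same 4-OHT and a vector for human SMN, and Smn1OE_K186R cells the same 4-OHT and a vector for human SMN with the K186R substitution of lysine by arginine. Loss of Bap1 was thus intended in all groups but WT. The treatment text names Rosa-CreER as the recombinase, whereas the source label names Prrx1Cre, a limb mesenchyme driver. None of the 4 groups had an empty vector, 4-OHT without deletion, or SMN without 4-OHT. Each culture media batch from A to C held a WT and a Bap1KO library, and each from D to F held an Smn1OE and an Smn1OE_K186R library. The labels do not say whether replicates were separate animals, so p-values measure only the spread between these libraries, which may be technical.

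Wnt ligands are secreted lipid-modified proteins that bind Frizzled receptors. With LRP co-receptors they stabilise β-catenin, which enters the nucleus and switches on targets through TCF and LEF factors, while ligands such as Wnt5a also act through Ror receptors without β-catenin. Sfrp proteins bind Wnts outside the cell, Dkk proteins mostly act on the LRP co-receptors, and Axin2, a scaffold of the complex that degrades β-catenin, is itself switched on by the pathway and dampens it. In mesenchymal progenitors, Wnt signalling is known to restrain the formation of adipocytes.

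Library totals were 51.2 to 68.2 M gene counts. Gene-level Bap1 was 50.5 ± 1.32 CPM (TMM-normalised counts per M gene counts) in WT cells and 40.3 ± 1.74 CPM in Bap1KO cells, against 49.1 ± 1.4 CPM with unmutated SMN and 45.3 ± 3.15 CPM with the K186R form (SD, n = 3). It was called lower in Bap1KO than in WT (log2 fold change -0.32, adjusted p = 0.0139), but not when WT replicate 3, Bap1KO replicate 2 or Bap1KO replicate 3 was left out (0.0689, 0.0502 and 0.0666). It was 1.22-fold higher in Smn1OE than in Bap1KO (adjusted p = 0.00924) and was not called in either SMN group against WT (0.638 and 0.0767). A gene-level count does not resolve the deleted exons, so it does not show the deletion in the SMN groups. The mouse gene Smn1 stood at 30.5 to 35.1 CPM without a vector and at 3688 to 5593 CPM with one. The vectors are for human SMN, and this count does not separate vector reads from those of the mouse gene. Means were 4757 CPM in Smn1OE and 3940 CPM in Smn1OE_K186R (log2 fold change -0.27, adjusted p = 0.997, edgeR). Of 11 FAP markers all were detected, with summed levels of 12372 to 16538 CPM in the WT libraries and 8023 to 12510 CPM in Bap1KO, against 3225 to 5008 CPM in Smn1OE and 3833 to 5251 CPM with K186R, most of it Col1a1. The 8 myogenic markers summed to 65.7 to 180 CPM, most of it Vcam1 (64.1 to 176 CPM), the surface protein that the sort selected against. Des was at 1.21 to 4.33 CPM, Pax7 and Myod1 were at 0.0189 CPM or less in every library, and Myf5 was at 0. Xist, expressed from the inactive X chromosome, was at 197 CPM or more in every WT and Bap1KO library and at 0.113 CPM or less in every library with a vector, whereas the Y-linked Eif2s3y was at 0 in the former and at 57.9 CPM or more in the latter. Comparisons of an SMN group with WT or Bap1KO therefore cannot be told apart from a difference in media batch and in sex-linked expression.

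Sequence upstream of transcription starts is shown because Axin2 and Lef1 are read as targets of TCF and LEF factors. RefSeq promoter windows of the GRCm38.p6 build, 250 bases before to 50 bases after a start, matched 7 of the 10 members with 12 windows in all. Wnt5a, Sfrp1 and Dkk3 had no entry. The core motif of TCF and LEF factors, CTTTGA or TCAAAG on the other strand, occurred in 2 of the 12 windows and in 5257 of all 32851 windows (16%). Both matches lay at starts inside the gene: start 3 of Wnt5b and start 4 of Lef1, in the order of the table. The 250 bases before each start are printed 5′ to 3′ in the direction of the gene, with the motif in capitals, for these 2 starts and, for contrast, for Axin2, the feedback scaffold, and Dkk2, an antagonist called in 5 of the 6 comparisons below. A match is a description of the letters and not a measured binding site. The Wnt5b stretch is chr6:119449387-119449636 on the minus strand, the Lef1 stretch is chr3:131156044-131156293, the Axin2 stretch is chr11:108920099-108920348 and the Dkk2 stretch is chr3:132085042-132085291, the last 3 on the plus strand.
Wnt5b, start 3: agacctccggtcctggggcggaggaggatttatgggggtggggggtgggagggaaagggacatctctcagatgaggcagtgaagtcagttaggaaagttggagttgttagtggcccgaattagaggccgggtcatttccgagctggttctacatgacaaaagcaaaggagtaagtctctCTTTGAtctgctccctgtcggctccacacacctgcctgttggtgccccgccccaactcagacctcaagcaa
Lef1, start 4: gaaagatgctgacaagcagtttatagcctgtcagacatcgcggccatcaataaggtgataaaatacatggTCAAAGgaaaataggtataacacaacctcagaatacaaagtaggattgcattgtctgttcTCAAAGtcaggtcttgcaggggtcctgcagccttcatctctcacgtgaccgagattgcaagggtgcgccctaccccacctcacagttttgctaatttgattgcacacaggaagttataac
Axin2: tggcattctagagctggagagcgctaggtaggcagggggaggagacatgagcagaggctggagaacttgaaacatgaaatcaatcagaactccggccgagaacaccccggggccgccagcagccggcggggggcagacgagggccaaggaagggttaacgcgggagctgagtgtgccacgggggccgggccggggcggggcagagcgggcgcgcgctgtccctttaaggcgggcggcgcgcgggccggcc
Dkk2: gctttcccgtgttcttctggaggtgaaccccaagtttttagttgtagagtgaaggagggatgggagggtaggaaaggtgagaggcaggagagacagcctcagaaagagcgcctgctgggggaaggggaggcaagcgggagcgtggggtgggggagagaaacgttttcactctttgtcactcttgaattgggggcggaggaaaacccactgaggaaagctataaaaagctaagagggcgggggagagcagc
In the Lef1 stretch the matches begin at bases 71 and 131, and in the Wnt5b stretch at base 180, counted from the upstream end. The Axin2 and Dkk2 stretches hold no match.

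Per kilobase of exon, 3 of the 4 antagonists were the most abundant members in WT cells. Mean levels in WT were 234 CPM per kb for Sfrp1, 56.1 for Dkk3, 15.2 for Dkk2 and 6.56 for Wnt5a (n = 3). Wnt2 (3.96), Sfrp2 (1.88), Wnt4 (1.71) and Wnt5b (1.13) followed, and Lef1 (0.132) and Axin2 (0.125) were lowest. The library ranges of Wnt2 and Sfrp2, of Sfrp2 and Wnt4, and of Lef1 and Axin2 overlapped, so these neighbours in the order did not differ beyond their spread. Wnt5a was thus the ligand with the highest level among the 4 listed, and Sfrp1 the member with the highest level, in WT. In Bap1KO the order of the top 5 was the same, with Sfrp1 at 108 CPM per kb, Dkk3 at 28.5 and Wnt5a at 4.23, and with overlap between Sfrp1 and Dkk3 and between Wnt5a and Wnt2. In Smn1OE, Dkk3 (12.8 CPM per kb) came first and Wnt5a (6.24) and Sfrp1 (6.19) followed with overlapping ranges. In Smn1OE_K186R, Dkk3 (15.3), Sfrp1 (12.9) and Wnt5a (6.92) led, and the ranges of Dkk3 and Sfrp1 and of Sfrp1 and Wnt5a overlapped.

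**Figure D1:**
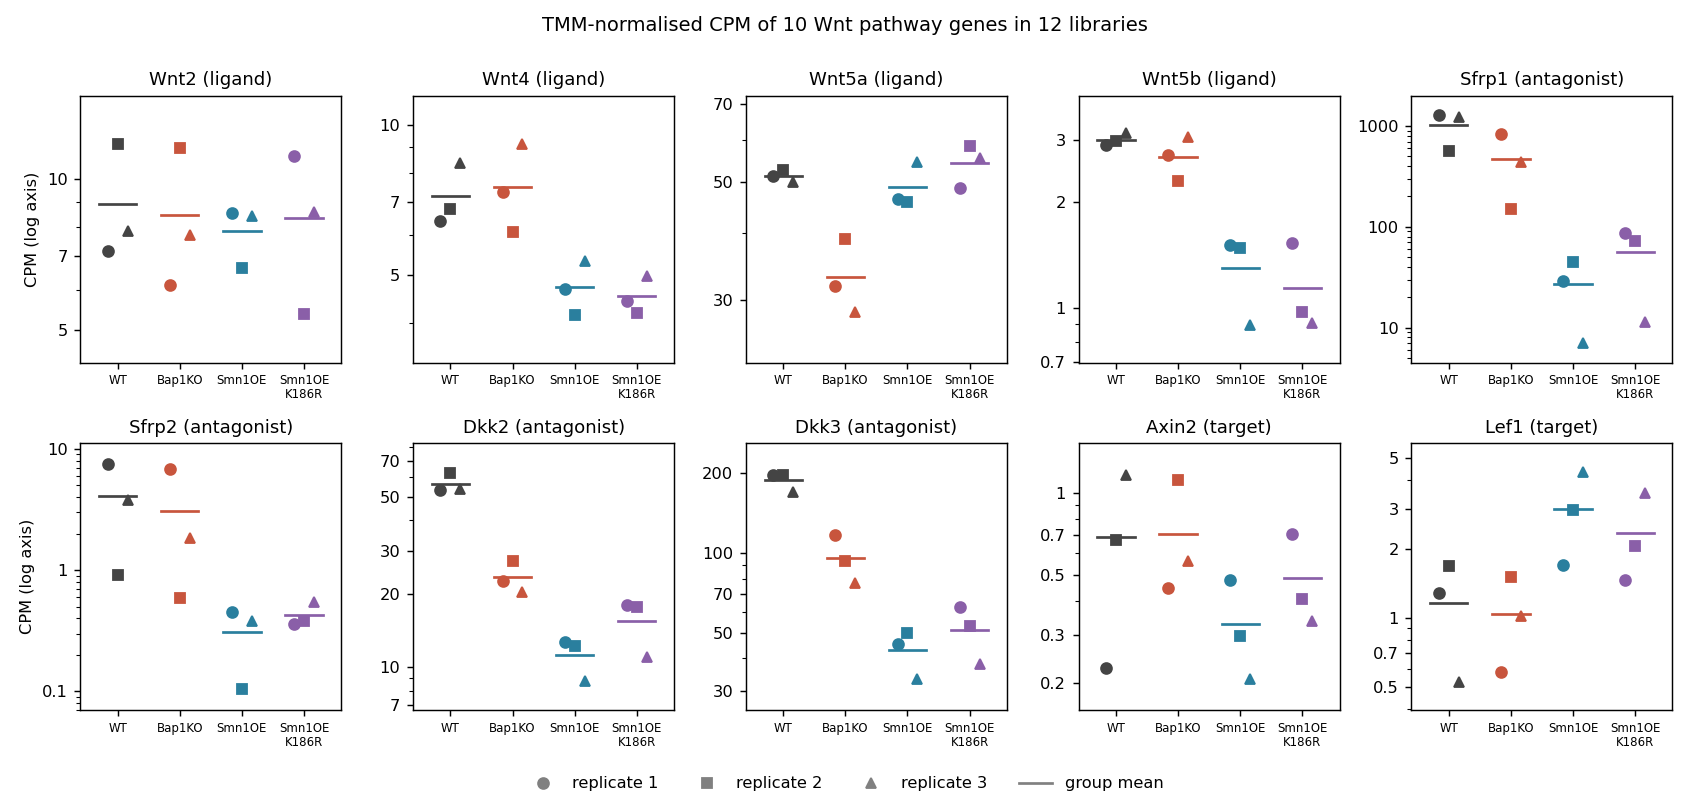
Level of each of the 10 genes in the 12 libraries, in TMM-normalised CPM on a log axis whose range differs between panels; symbols mark replicates 1 to 3, which are media batches A to C for WT and Bap1KO and D to F for the SMN groups, and lines mark group means. Wnt5a is lower in Bap1KO than in the other groups, Dkk2 and Dkk3 step down from WT to Bap1KO to the SMN groups, and the Wnt2 ranges of all 4 groups overlap.

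The first comparison asks which members respond to Bap1 deletion, together with 4-OHT. Wnt5a, Dkk2 and Dkk3 fell in Bap1KO relative to WT, and no member rose. These 3 of 10 members compare with 9.72% of all genes called in either direction and 6.37% called lower. With media batch as a block, 4 of 10 members were called, all lower, beside 33.9% of all genes in either direction. The median log2 fold change was -0.27 over the members and 0.00 over all genes tested. The same 3 members were those whose Bap1KO and WT libraries did not overlap, which 32.3% of all genes showed. Calls here and below are those of edgeR's quasi-likelihood test at a Benjamini-Hochberg adjusted p under 0.05. The members and the pathway list were chosen with earlier results of these data known. A share or median that differs from that of all genes, here or below, is therefore a description and not a test of enrichment.

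Wnt5a, a ligand that acts mainly outside the β-catenin route, was measured at 51.2, 52.7 and 50 CPM in the WT libraries of batches A, B and C. In the Bap1KO libraries of the same batches it was 31.8, 39 and 28.4 CPM. Every Bap1KO library lay below every WT library, and the WT values were close together. The log2 fold change was -0.63 ± 0.11 (SE; adjusted p = 0.00697, edgeR), and the differences within batches were -0.69, -0.43 and -0.81. The other 3 ligands were not called. Wnt2 was 7.19, 11.7 and 7.86 CPM in WT and 6.14, 11.5 and 7.73 CPM in Bap1KO (log2 fold change -0.08 ± 0.29, adjusted p = 0.902). In both groups its batch B library was the highest, so Wnt2 varied more between batches than between groups. Wnt4 was 6.4, 6.79 and 8.37 CPM in WT and 7.32, 6.08 and 9.15 CPM in Bap1KO (0.06 ± 0.17, adjusted p = 0.86), and Wnt5b 2.89, 2.98 and 3.13 CPM in WT and 2.71, 2.29 and 3.05 CPM in Bap1KO (-0.16 ± 0.25, adjusted p = 0.733).

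Dkk2, a ligand of the LRP co-receptors, was 53.3, 62.5 and 53.7 CPM in WT and 22.6, 27.3 and 20.3 CPM in Bap1KO. The groups were far apart and each WT library was the higher of its batch. Dkk2 was 2.41-fold lower in Bap1KO (log2 fold change -1.27 ± 0.19, adjusted p = 0.00287), with -1.24, -1.19 and -1.41 within batches. Dkk3, a divergent secreted member of the Dickkopf family, was 197, 198 and 170 CPM in WT and 117, 93.5 and 76.9 CPM in Bap1KO. These groups did not overlap either, and the log2 fold change was -0.97 ± 0.20 (adjusted p = 0.0115, and 0.0575 without Bap1KO replicate 3).

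Sfrp1, which binds Wnts outside the cell, was 1275, 566 and 1234 CPM in WT and 830, 151 and 441 CPM in Bap1KO. The highest Bap1KO library stood above the lowest WT library, but the batch B library was lowest in both groups and each Bap1KO library lay below the WT library of its batch. Sfrp1 was not called without the block (log2 fold change -1.11 ± 0.76, adjusted p = 0.386) and was called with media batch as a block (-1.32, adjusted p = 0.000944), a fit in which 33.9% of genes were called. Sfrp2, of the same family, was 7.48, 0.916 and 3.76 CPM in WT and 6.87, 0.595 and 1.85 CPM in Bap1KO (-0.38 ± 0.78, adjusted p = 0.809, and 0.0589 with the block). It too was lowest in batch B, where the levels were several times below those of batch A in both groups.

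The feedback targets were not called. Axin2 was 0.228, 0.671 and 1.16 CPM in WT and 0.447, 1.11 and 0.563 CPM in Bap1KO (0.05 ± 0.55, adjusted p = 0.975), and its differences within batches, 0.95, 0.72 and -1.03, had different signs. Lef1, a DNA-binding partner of β-catenin, was 1.28, 1.68 and 0.526 CPM in WT and 0.581, 1.51 and 1.02 CPM in Bap1KO (-0.17 ± 0.50, adjusted p = 0.876). Axin2 had 11 to 75 counts per library and Lef1 34 to 229, and the spread between replicates was wide for both, so changes within these standard errors were not detectable.

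**Figure D2:**
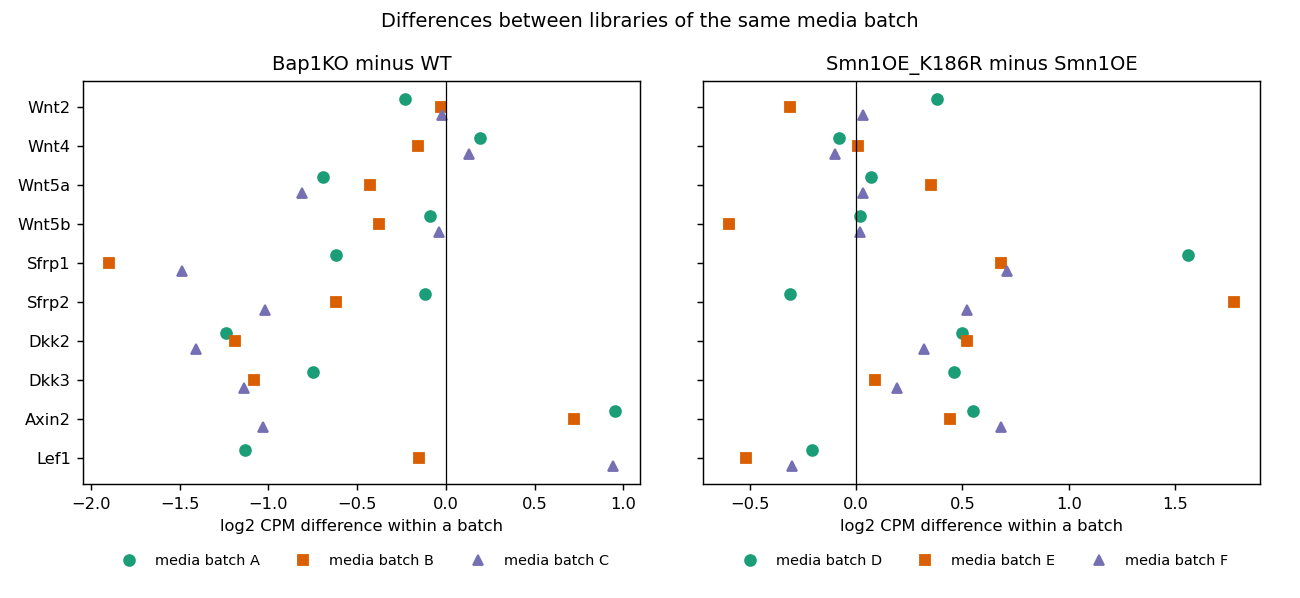
Difference in log2 CPM between the 2 libraries of each media batch, Bap1KO minus WT in batches A to C and Smn1OE_K186R minus Smn1OE in batches D to F; each point is 1 pair of libraries. On the left all genes but Wnt4, Axin2 and Lef1 are negative in all 3 batches (Dkk2 from -1.41 to -1.19), and on the right Wnt5a, Sfrp1, Dkk2, Dkk3 and Axin2 are positive in all 3 (Dkk2 from 0.32 to 0.52) and Lef1 is negative in all 3.

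The next comparisons ask how members differ when SMN is expressed in 4-OHT-treated cells. Both are made with the same 3 Bap1KO libraries, and no media batch holds libraries of both arms, so no difference within batches can be given. In Smn1OE relative to Bap1KO, Wnt5a and Lef1 rose and Wnt4, Wnt5b, Sfrp1, Sfrp2, Dkk2 and Dkk3 fell. These 8 of 10 members compare with 33.5% of all genes called, and the median log2 fold change was -1.05 over the members and -0.01 over all genes. In Smn1OE_K186R relative to Bap1KO, Wnt5a rose and the same 6 members fell. These 7 compare with 32.6% of all genes, with a median of -0.66 over the members and -0.01 over all genes. In each comparison the called members were those whose libraries did not overlap between the groups, which held for 48.6% of all genes with unmutated SMN and 43.7% with the K186R form. All 4 antagonists fell in both comparisons, and with media batch as a random effect 3 of the 4, since Sfrp2 was not called (adjusted p = 0.0806 and 0.121, limma).

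Wnt5a stood at 46.3, 45.8 and 54.4 CPM in the Smn1OE libraries of batches D, E and F and at 48.6, 58.3 and 55.5 CPM in the Smn1OE_K186R libraries. All 6 lay above the highest Bap1KO library and around the WT values. Against Bap1KO the log2 fold change was 0.56 ± 0.11 (adjusted p = 0.00387) in Smn1OE and 0.71 ± 0.11 (adjusted p = 0.00141) in Smn1OE_K186R. Against WT it was -0.07 ± 0.11 (adjusted p = 0.618) and 0.08 ± 0.11 (adjusted p = 0.604). Wnt5a was the sole member called lower in Bap1KO than in WT and higher in both SMN groups than in Bap1KO. Each of these comparisons uses the same Bap1KO libraries, and the share of all genes with this pattern was not counted. The pattern was not particular to Wnt5a: the receptor Fzd3, outside the list, was called in the same directions (-0.72, 0.58 and 0.45).

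Wnt4 and Wnt5b, whose levels in Bap1KO did not pass the test against WT, were lower in the SMN groups. Wnt4 was 4.69, 4.16 and 5.32 CPM in Smn1OE and 4.44, 4.2 and 4.97 CPM in Smn1OE_K186R, every library below the lowest Bap1KO value of 6.08 CPM. Its log2 fold change against Bap1KO was -0.67 ± 0.17 (adjusted p = 0.0124, and 0.0578 without Bap1KO replicate 3) and -0.73 ± 0.17 (adjusted p = 0.00885). Wnt5b was 1.51, 1.48 and 0.89 CPM in Smn1OE and 1.53, 0.974 and 0.904 CPM in Smn1OE_K186R, also below every Bap1KO library. It fell by 1.05 (SE 0.26, adjusted p = 0.00934) and by 1.23 (SE 0.26, adjusted p = 0.00469) on the log2 scale. Wnt2 was 8.54, 6.65 and 8.41 CPM in Smn1OE and 11.1, 5.37 and 8.6 CPM in Smn1OE_K186R, within the spread of the other groups, and was not called (adjusted p = 0.8 and 0.967).

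Dkk2 and Dkk3 were lower still in the SMN groups. Dkk2 was 12.7, 12.2 and 8.82 CPM in Smn1OE and 18, 17.6 and 11 CPM in Smn1OE_K186R, below every Bap1KO library. The log2 fold change against Bap1KO was -1.05 ± 0.19 (adjusted p = 0.0021) in Smn1OE and -0.59 ± 0.19 (adjusted p = 0.0322) in Smn1OE_K186R. The latter did not pass when Bap1KO replicate 1, Bap1KO replicate 2 or Smn1OE_K186R replicate 3 was left out (adjusted p = 0.0565, 0.0982 and 0.0914) and in a fit of the 2 groups only (0.0644). Dkk3 was 45.5, 49.8 and 33.4 CPM in Smn1OE and 62.8, 53.1 and 38.1 CPM in Smn1OE_K186R. It too lay below every Bap1KO library, with log2 fold changes of -1.16 ± 0.20 (adjusted p = 0.00157) and -0.90 ± 0.20 (adjusted p = 0.00583).

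Sfrp1 showed the widest range of the 10. It was 29.3, 44.9 and 6.99 CPM in Smn1OE and 86.2, 71.9 and 11.4 CPM in Smn1OE_K186R, with the batch F library lowest in both groups. All 6 libraries lay below the lowest Bap1KO library. The log2 fold change against Bap1KO was -4.13 ± 0.86 (adjusted p = 0.00409), a 17.5-fold lower level, in Smn1OE and -3.07 ± 0.81 (adjusted p = 0.0141, and 0.051 without Bap1KO replicate 1) in Smn1OE_K186R. Without that library the log2 fold changes of Sfrp1 were -3.45 and -2.40. Sfrp2 was 0.45, 0.104 and 0.379 CPM in Smn1OE and 0.361, 0.378 and 0.546 CPM in Smn1OE_K186R, with as few as 7 counts in a library. Its log2 fold changes were -3.33 ± 0.92 (adjusted p = 0.0163) and -2.87 ± 0.89 (adjusted p = 0.0275). Without Bap1KO replicate 1, the library with the highest Sfrp2 of its group, neither Sfrp2 comparison was called (-1.97, adjusted p = 0.0969, and -1.52, adjusted p = 0.181). The Smn1OE call was also lost without Smn1OE replicate 2 (0.0545), and the Smn1OE_K186R call without Smn1OE_K186R replicate 1, 2 or 3 (0.0753, 0.0807 and 0.0563).

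Of the feedback targets, Lef1 was 1.71, 2.95 and 4.34 CPM in Smn1OE and 1.47, 2.05 and 3.52 CPM in Smn1OE_K186R. The Smn1OE libraries lay just above the highest Bap1KO library of 1.51 CPM, whereas the lowest Smn1OE_K186R library lay below it. Lef1 rose in Smn1OE (1.53 ± 0.50, adjusted p = 0.0331) and was not called in Smn1OE_K186R (1.18 ± 0.49, adjusted p = 0.0864). The Smn1OE result did not pass when Bap1KO replicate 1 or 3 (adjusted p = 0.115 and 0.0862) or Smn1OE replicate 2 or 3 (0.06 and 0.13) was left out. The difference between the SMN groups for Lef1 was itself not called (-0.35 ± 0.48, adjusted p = 0.997). Axin2 was 0.48, 0.298 and 0.208 CPM in Smn1OE and 0.707, 0.407 and 0.339 CPM in Smn1OE_K186R and was not called in either (-1.09 ± 0.57, adjusted p = 0.161, and -0.54 ± 0.56, adjusted p = 0.48).

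Against WT, the members with the largest differences in the SMN groups were the antagonists. Smn1OE had 6 members lower and Lef1 higher, beside 26.6% of all genes lower and 23.8% higher (50.4% in all). Smn1OE_K186R had the same 6 lower and none higher, beside 26.5% and 24% (50.5% in all). The median log2 fold change of the members was -1.13 and -1.03, and that of all genes -0.02 in both. These use the same WT libraries, and the SMN groups also enter the comparisons with Bap1KO. Sfrp1 was 37.8-fold lower in Smn1OE (log2 fold change -5.24 ± 0.90, adjusted p = 0.000595) and 18.1-fold lower in Smn1OE_K186R (-4.18 ± 0.86, adjusted p = 0.00175). Dkk2 was 5.01-fold lower in Smn1OE (-2.33 ± 0.20, adjusted p = 1.24e-05) and 3.63-fold lower in Smn1OE_K186R (-1.86 ± 0.19, adjusted p = 2.77e-05). Dkk3 was 4.38-fold and 3.66-fold lower (adjusted p = 1.85e-05 and 3.49e-05). Sfrp2 fell by 3.71 and 3.25 on the log2 scale (adjusted p = 0.00558 and 0.00972), and its log2 fold changes were -2.92 and -2.46 without WT replicate 1. The ligands Wnt4 and Wnt5b were 1.52-fold and 2.31-fold lower in Smn1OE (adjusted p = 0.0121 and 0.00221) and 1.59-fold and 2.63-fold lower in Smn1OE_K186R (adjusted p = 0.00752 and 0.000952). Wnt4 was not called in Smn1OE without WT replicate 3 (adjusted p = 0.0636). Lef1 was 2.57-fold higher in Smn1OE (adjusted p = 0.0351), a call lost without WT replicate 1 or 3 (0.0727 and 0.113) or Smn1OE replicate 2 or 3 (0.0644 and 0.144). Axin2 was not called against WT in either SMN group (adjusted p = 0.148 and 0.484), and was called in Smn1OE without WT replicate 1 (0.04).

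**Figure D3:**
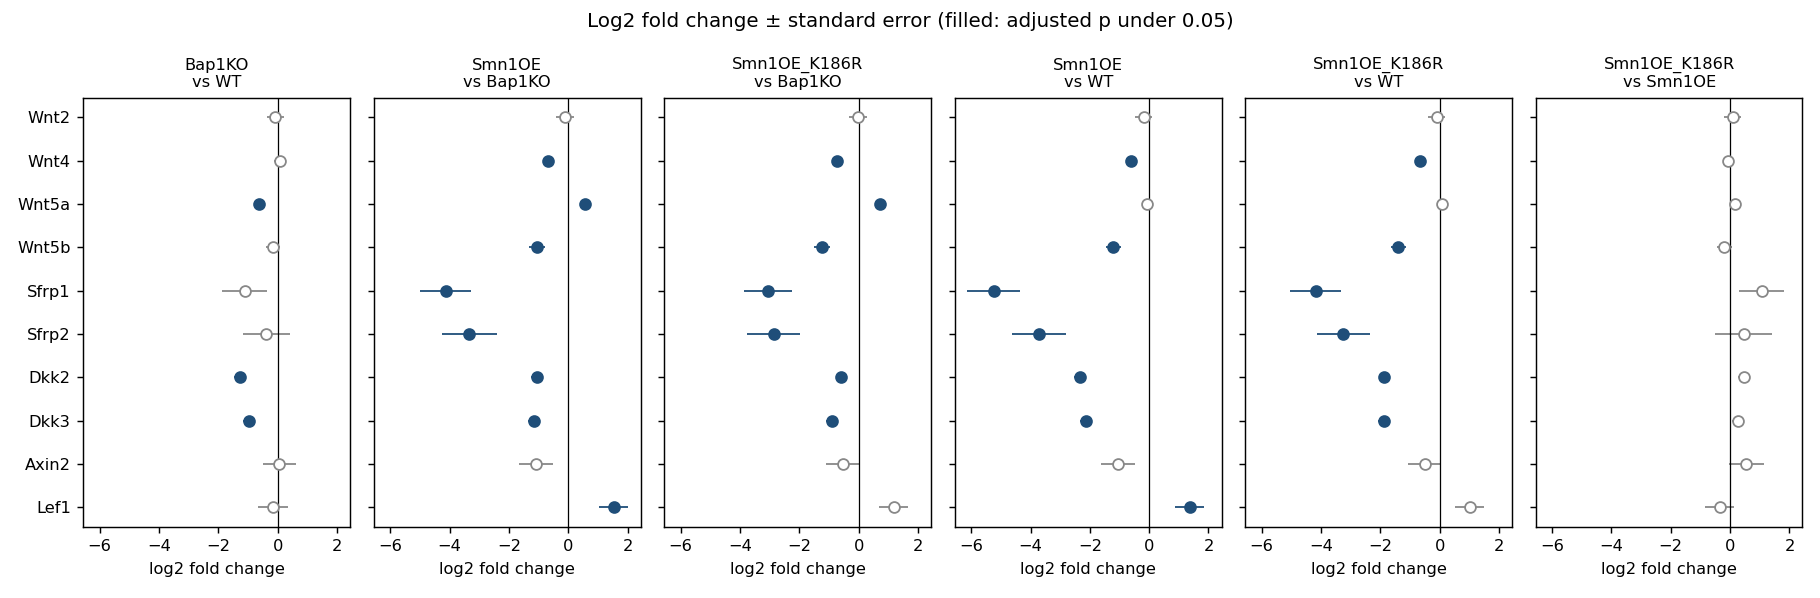
Log2 fold change of each gene in the 6 comparisons, first-named group over second; bars are standard errors and filled points have an adjusted p under 0.05 in edgeR. Sfrp1 has the largest differences, down to -5.24 in Smn1OE against WT, and no point is filled for Smn1OE_K186R against Smn1OE.

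The last comparison asks whether the K186R substitution alters the members. No member was called, and over all genes 0% were called. Dkk2 had an unadjusted p of 0.031 (log2 fold change 0.47 ± 0.19, adjusted p = 0.997) and was the sole member with one under 0.05, beside 388 genes (2.34%). DESeq2 called 0 genes. No member had groups that did not overlap, beside 6.78% of all genes. With media batch as a block, 35 genes were called (0.221%), and Sfrp1 was among them. Sfrp1 was higher with K186R by 1.56, 0.68 and 0.71 in log2 CPM in batches D, E and F (blocked log2 fold change 1.00 ± 0.15, adjusted p = 0.0199, against 1.06 ± 0.77 and 0.997 without the block). The 4 antagonists all had positive log2 fold changes, from 0.26 ± 0.20 for Dkk3 to 1.06 for Sfrp1, and the ligands lay between -0.19 ± 0.26 for Wnt5b and 0.15 ± 0.11 for Wnt5a. A p above the threshold does not show that the forms of SMN act alike on these genes.

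Among the 4 listed ligands and the 4 listed antagonists, summed per kilobase of exon, the balance of antagonist to ligand transcripts moved mostly through the antagonists. The 4 antagonists summed to 368, 206 and 349 CPM per kb in WT and to 234, 70.1 and 130 in Bap1KO. They summed to 23.9, 28.5 and 14.1 in Smn1OE and to 43.5, 37.2 and 17.2 in Smn1OE_K186R. The 6 libraries with a vector were all lower than the 6 without one. The same split separates media batches D to F from A to C and divides the libraries by sex-linked expression. How many genes showed this split was not counted. Against Bap1KO alone, 48.6% of all genes did not overlap in Smn1OE and 43.7% with K186R. The 4 ligands summed to 12.3, 14.7 and 13.1 CPM per kb in WT and 9.55, 12.4 and 10.4 in Bap1KO. With a vector they summed to 11.4, 10.4 and 12.3 (Smn1OE) and 12.8, 11.2 and 12.4 (Smn1OE_K186R), so the ligand ranges of the 4 groups overlapped in part. The ratio of antagonists to ligands was 14 to 29.8 in WT libraries and 5.65 to 24.5 in Bap1KO, and with a vector 1.15 to 2.75 (Smn1OE) and 1.38 to 3.4 (Smn1OE_K186R). Sfrp1 made up 62.9 to 80.9% of the antagonist sum in WT, 49.4 to 81.1% in Bap1KO, 11.3 to 36.1% in Smn1OE and 15.2 to 45.4% with K186R. These sums are descriptions of transcript levels, and no test was made on them. They leave out ligands and antagonists outside the list. Mean levels of the ligand Wnt11 were 17.9 CPM in WT, 23.8 in Bap1KO, 28.6 in Smn1OE and 30 with K186R. Wnt11 was called higher against WT in both SMN groups (adjusted p = 0.0231 and 0.0145), but not without WT replicate 1 (0.0987 and 0.0666). Of 5 tested other ligands 3 rose and 1 fell in Smn1OE against WT, beside 23.8% and 26.6% of all genes. With K186R 2 rose and 1 fell, beside 24% and 26.5% of all genes.

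**Figure D4:**
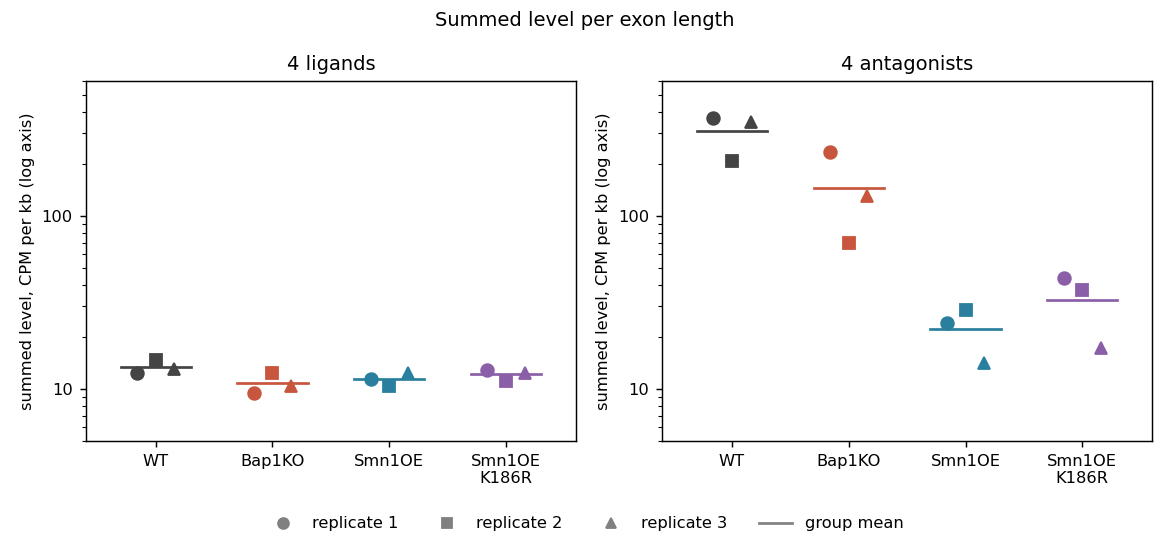
Sum of the 4 ligands (left) and of the 4 antagonists (right) in each library, in CPM per kb of exon on a log axis shared by both panels; symbols mark replicates and lines group means. The ligand sums lie between 9.55 and 14.7 in all libraries, and the antagonist sums fall from 206 to 368 in WT to 14.1 to 28.5 in Smn1OE.

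Some cell type markers also differed between the groups, not all in the direction of the antagonists. The tenocyte markers (Tnmd, Scx, Mkx and Fmod, all 4 tested) summed to 237 to 415 CPM in WT libraries and 184 to 454 CPM in Bap1KO, but to 25.9 to 37.8 CPM in Smn1OE and 36.9 to 59.3 CPM with K186R, most of it Fmod. Scx, the tendon transcription factor, was 3.33 to 5.23 CPM in WT, 7.4 to 9.82 CPM in Bap1KO and 5.98 to 8.27 CPM in Smn1OE and so did not follow that sum. Pdgfra, the receptor that defines FAPs, was 75.8 to 106 CPM in WT libraries, 26.2 to 39.3 CPM in Bap1KO, 13.9 to 20.7 CPM in Smn1OE and 15.5 to 29.1 CPM with K186R. Cd34, another FAP marker, did not follow it: means were 44.1 CPM in WT and 23.5 CPM in Bap1KO, and 65.3 and 60.9 CPM in the SMN groups. The part of the cell makeup, of the media batch and of sex-linked expression in the member differences was not tested. In bulk RNA, fewer cells of a type and less RNA per cell cannot be told apart. The profile of Dkk3 was among the 2 nearest to that of Dkk2 over the 12 libraries (root mean square difference 0.20 in log2 CPM, against 0.91 for Dkk2 about its own mean), after Car11 (0.19). Nearest to Dkk3 were Spry1 (0.15) and Sat2 (0.17), to Wnt5a Tmem136 and Ric3 (0.13 each), and to Sfrp1 Gas1 (0.47) and Abi3bp (0.53). The gene nearest to Sfrp2 was Ggt5 (0.66), to Lef1 Gm10687 (0.31) and to Axin2 Gm45629 (0.42).

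The rest of the pathway was followed in a list of 91 further genes, of which 72 were tested. In Bap1KO against WT, 6 were higher and 9 lower, against 3.36% and 6.37% of all genes. With the media batch block 15 were higher and 24 lower of 71 tested, in a fit that called 33.9% of all genes. Of 9 tested other antagonists 3 fell: Sfrp4 (-1.82, adjusted p = 0.0138), Frzb, from 8.63 ± 0.882 to 3.54 ± 0.52 CPM (-1.28, adjusted p = 0.00382), and Apcdd1 (-0.94, adjusted p = 0.00482). Sfrp4 was not called without WT replicate 1 (0.0568) or Bap1KO replicate 3 (0.0557). Of 21 receptors 5 fell and 1 rose, and the Frizzled receptor Fzd3 was among the former (-0.72, adjusted p = 0.00691). Among the TCF factors and cofactors Tcf7l2 rose (0.60, adjusted p = 0.00626), and none of the 5 tested other ligands was called. Of the secretion and R-spondin genes Wls rose (0.38, adjusted p = 0.0258). Of the transducer and destruction complex genes Dvl1 (0.34, 0.0393) and Gsk3b (0.30, 0.0353) rose. The calls of Wls, Dvl1 and Gsk3b were lost when certain single libraries were left out (adjusted p up to 0.107, 0.16 and 0.125). Ctnnb1, which encodes β-catenin, was 394 ± 46.6 CPM in WT and 440 ± 16.2 in Bap1KO and was not called (0.16, adjusted p = 0.286). The target Nkd1 (-0.64, adjusted p = 0.168), the TCF factor Tcf7 (0.76, adjusted p = 0.211) and the R-spondin Rspo3 (-0.77, adjusted p = 0.285) were not called, but were with the block, at adjusted p = 0.00771, 0.0363 and 0.00285. Rspo3 was also called without Bap1KO replicate 1 (-1.47, adjusted p = 0.0329). Notum, an enzyme that inactivates Wnts, was not called (-0.29, adjusted p = 0.79).

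In Smn1OE against Bap1KO, 12 of the 72 were higher and 26 lower (15.8% and 17.7% of all genes). Secretion and R-spondin genes fell in 4 of 5 cases, among them Rspo2 (-2.21, adjusted p = 0.00636), Rspo3 (-1.73, adjusted p = 0.0128) and Porcn, the enzyme that adds the lipid to Wnts (-0.86, adjusted p = 0.00619). Rspo3 was not called without Bap1KO replicate 1 (0.0632) or Smn1OE replicate 3 (0.0545). Of 21 receptors 10 fell and 4 rose, among the latter Fzd10 (2.06, adjusted p = 0.0166). Fzd10 was not called without Bap1KO replicate 1 (0.0681) or Smn1OE replicate 1 (0.0798). Lgr5, 1 of several R-spondin receptors and itself a target, went from 8.46 ± 5.61 to 0.874 ± 0.407 CPM (-3.26, adjusted p = 0.0011). Ror1, a Wnt5a receptor, fell by 1.90 on the log2 scale (adjusted p = 0.002). Of 9 other antagonists 5 fell, among them Wif1 (-2.24, adjusted p = 0.00742) and Trabd2b (-0.89, adjusted p = 0.000315). Of 14 transducer and destruction complex genes 5 rose, among them Gsk3b (0.41, adjusted p = 0.00283) and Apc (0.43, 0.0201), and 1 fell. Apc was not called without Bap1KO replicate 1, Smn1OE replicate 1 or Smn1OE replicate 3 (0.0657, 0.0589 and 0.059). Of 11 TCF factors and cofactors 2 rose, among them Tle4 (0.78, adjusted p = 0.0058), and 4 fell. Of 7 tested other targets 1 rose and 1 fell, the same counts as in Bap1KO against WT. The gene that fell was the feedback inhibitor Nkd2, from 18.8 ± 1.89 to 3.72 ± 0.35 CPM (-2.34, adjusted p = 0.000319). Nkd1 (-0.18, adjusted p = 0.653), Ctnnb1 (0.14, adjusted p = 0.251) and Tcf7 (0.69, adjusted p = 0.153) were not called. Notum fell by 1.68 (adjusted p = 0.0456), a call that rested on single libraries (adjusted p = 0.0557 to 0.139 without any 1 of 5 libraries).

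In Smn1OE_K186R against Bap1KO, 13 of the 72 were higher and 19 lower (16.1% and 16.5% of all genes). Lgr5 (-2.58, adjusted p = 0.0031), Ror1 (-1.63, adjusted p = 0.00433), Porcn (-0.86, adjusted p = 0.00691), Trabd2b (-0.74, adjusted p = 0.000937) and Nkd2 (-1.92, adjusted p = 0.000933) fell here too. Frzb fell by 0.81 (adjusted p = 0.0117), and had fallen by 0.84 (0.00961) in Smn1OE against Bap1KO. Among the 13 that rose were Fzd10 (2.06, adjusted p = 0.0172), Wnt2b (1.22, 0.0132), Tle4 (0.75, 0.0078) and Apc (0.67, 0.0027). Without Bap1KO replicate 1, Fzd10 and Wnt2b were not called (0.0687 and 0.0568). Ctnnb1 (0.24, adjusted p = 0.0618), Tcf7 (0.43, adjusted p = 0.37), Nkd1 (-0.42, adjusted p = 0.278) and Notum (-1.18, adjusted p = 0.133) were not called. Against WT, 20 of the 72 were higher and 33 lower in Smn1OE (23.8% and 26.6% of all genes), and 18 and 32 in Smn1OE_K186R (24% and 26.5%). Ctnnb1 was higher in Smn1OE (0.30, adjusted p = 0.0152) and Smn1OE_K186R (0.40, 0.0033), as was Tcf7 (1.45, 0.00598, and 1.19, 0.0168). Nkd1 (-0.82, 0.0284, and -1.06, 0.0084), Rspo3 (-2.50, 0.000928, and -2.23, 0.00174) and Notum (-1.97, 0.015, and -1.47, 0.0495) were lower. Single libraries left out removed the Smn1OE calls of Ctnnb1 and Nkd1, the Smn1OE_K186R call of Tcf7 and both calls of Notum. In Smn1OE_K186R against Smn1OE none of the 72 was called, and 3 had an unadjusted p under 0.05, as did 2.34% of all genes.

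**Figure D5:**
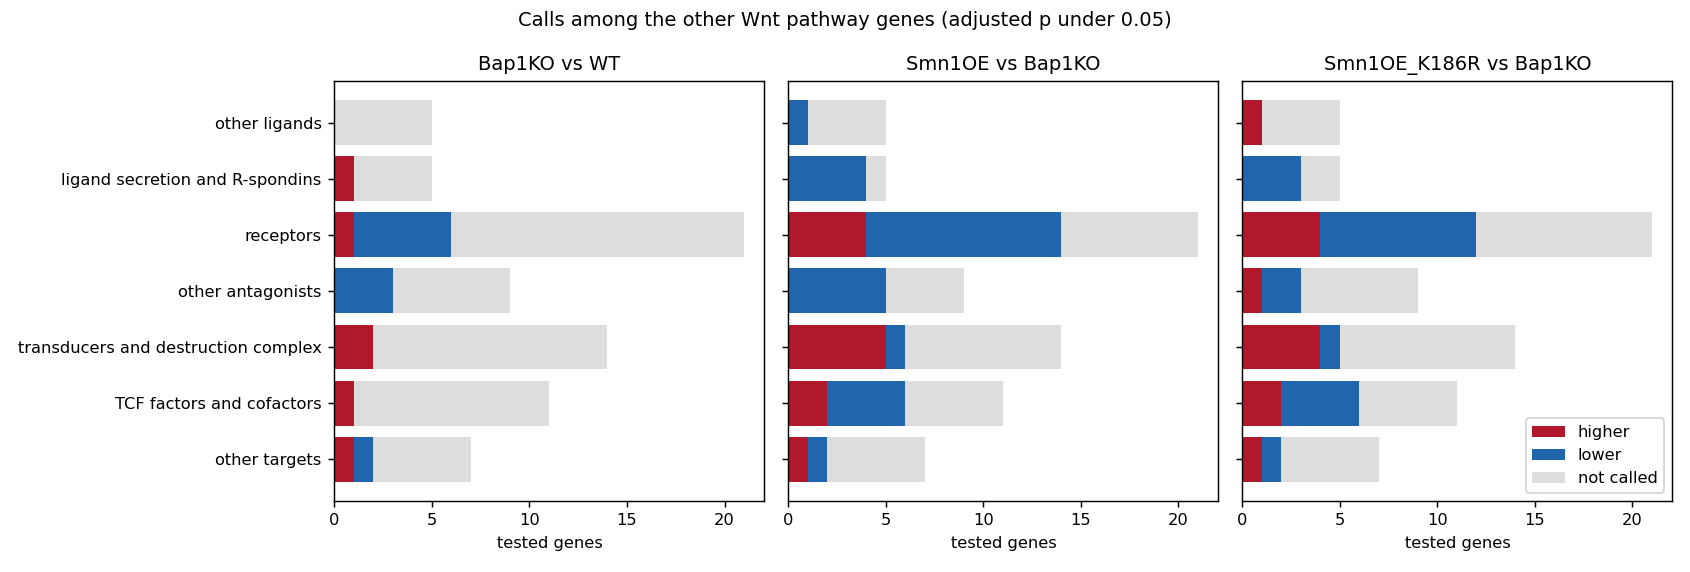
Number of tested pathway genes, members not included, called higher (red), lower (blue) or not called (grey) by group in 3 comparisons. Of 9 other antagonists, 3 are lower in Bap1KO against WT and 5 in Smn1OE against Bap1KO, and of 5 secretion and R-spondin genes 4 are lower in Smn1OE.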

How the data were processed

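Raw read counts per Ensembl gene were deposited by the authors as 1 table per library, with no normalization, from paired-end TruSeq libraries of 12 samples. The submitters' processing notes give STAR 2.6.1 for the GRCm39 build, HTSeq 0.9.1, cutadapt 1.4.2, CASAVA 1.8.2 and an unversioned DESeq2; the annotation and the strand setting are not given in the sources used here. Without strand, reads of antisense partners cannot be told apart: opposite-strand genes overlap 16.1% of the exon bases of Sfrp2, 13.7% of Lef1, 4.6% of Wnt5a and 3.8% of Axin2. The partners' own counts reached at most 0.167 CPM (Gm26771, at Sfrp2), 0.435 (Gm43352, at Lef1), 0.872 (Gm2670, at Wnt5a) and 0.0752 (Gm11670, at Axin2). Rows that name no gene held 11.1 to 14.6% of records and were left out. Symbols and exon lengths came from GENCODE M21 (GRCm38), which matched 55154 of 55335 rows.

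Groups, media batches and treatments were taken from the labels. Tests used edgeR 4.0.16 in R 4.3.3: TMM, filterByExpr with a minimum count of 10, and 1 quasi-likelihood fit of the 4 groups over 12 libraries (8 residual degrees of freedom, 16597 genes, common biological coefficient of variation 0.179), 2-sided, adjusted by Benjamini-Hochberg over all genes. A prior count of 0.125 entered the fold changes, and standard errors were derived from the log2 fold change and F. The pipeline was tested on simulated data. Replicates differed beyond counting noise (chi-square per degree of freedom 38.1 to 123), so the spread between libraries, not depth, limits precision of abundant genes.

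Per the labels, libraries of a media batch are paired. Deviations from group means correlated at 0.20 to 0.37 within batches A to C and 0.26 to 0.38 within D to F. Alternatives were RLE scaling, no filter, DESeq2 1.42.0, the 2 groups alone, leaving out each library, the batch as a block, and, across batches, limma 3.58.1 (voom) with batch as a random effect (correlation 0.45). The 10 members are all named; of other pathway genes, up to 3 called genes per group with the largest fold change, plus Ctnnb1, Tcf7, Nkd1, Notum and Rspo3, could be named. Members and lists were chosen with earlier results of these data known. Nearest genes are those with the smallest root mean square difference in centred log2 CPM.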

Additional observations from a re-analysis of the deposited data

How the results depend on the processing

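Of 660 values of the members under the alternatives, 630 stayed on the same side of the threshold, 24 lost the call and 6 gained it. No called value changed sign, and 21 values without a call did. In Bap1KO against WT, 1614 genes were called, 2560 with DESeq2 and 5207 with the replicate block on media batch, which also called 39 pathway genes in place of 15; leaving out 1 library gave 535 to 1457 genes, 2 to 3 members and 6 to 14 pathway genes. In Smn1OE against Bap1KO, leaving out 1 library gave 3512 to 5627 genes (5567 with all), 6 to 8 members and 27 to 39 pathway genes. In Smn1OE_K186R against Bap1KO, 5416 genes were called and 3462 in a fit of the 2 groups only; leaving out 1 library gave 3385 to 5309 genes, 4 to 7 members and 20 to 36 pathway genes, with 4 members without Bap1KO replicate 1. Against WT, leaving out 1 library gave 5 to 7 members in Smn1OE and 6 in Smn1OE_K186R, where 7 were called with no filter. In Smn1OE_K186R against Smn1OE the replicate block called 35 genes and 1 member, where the fit without it called 0. Lef1 was called in Smn1OE_K186R against Bap1KO with no filter (adjusted p = 0.0188) and with DESeq2 (0.039), and against WT with no filter (0.0313). The block called Sfrp1 in both comparisons within batches and changed no other call of a member. Where a library left out reduces the calls, fewer samples enter the fit; the cause of the other changes was not tested. Axin2, Lef1 and Sfrp2, with the fewest counts, had the widest standard errors beside Sfrp1.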
